A study of Mus musculus with 9 samples.

Results

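Prl2c2, Prl2c3 and Prl2c5 are mouse proliferin genes, 3 of the 55335 genes counted in D2A1-d cells. The set was chosen by the log2 fold changes of Prl2c2 and Prl2c3 in Med4 knockdown cells, which were among the lowest of all genes, so values against the control are given as a description, with no test. Prl2c5 was taken with them as a further proliferin gene. D2A1-d is a murine breast carcinoma line. Its cells had been transduced with a short hairpin RNA called shMed4 #4 or shMed4 #1, both against Med4 (labelled as Med4 knockdown), or with a non-targeting control hairpin, NTC (labelled as wild type). The Med4 protein belongs to Mediator, which passes signals of transcription factors on to RNA polymerase II. All cells grew in the same serum-containing medium without further treatment, and each group held 3 libraries of total RNA, 9 in all. The labels call the libraries biological replicates without saying whether they were transduced apart or are pools or clones, so every p-value below is set against the spread between libraries, which may be technical.

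Between 7572114 and 8582235 reads per library fell within genes. Med4 stood at 26.3% of its NTC level in shMed4 #4 cells and at 16.5% in shMed4 #1 cells, so Med4 itself was lower with shMed4 #1. Of the 7 mammary epithelial markers, Cdh1, the epithelial cadherin, had no read, and Epcam, an epithelial surface protein, had 1 read in all libraries together. The summed level of these markers, nearly all from the keratins Krt8 and Krt18, was 176 to 201 CPM (reads scaled to library size) in shMed4 #4, 93.8 to 111 CPM in shMed4 #1 and 23.6 to 25.04 CPM in NTC libraries. Mesenchymal markers (Vim, Cdh2, Zeb1) summed to 1114 to 1175 CPM in shMed4 #4, 1451 to 1615 CPM in shMed4 #1 and 1966 to 2009 CPM in NTC libraries. Fibroblast markers summed to 163 to 175 CPM in shMed4 #4, 184 to 192 CPM in shMed4 #1 and 246 to 275 CPM in NTC libraries, from Pdgfra and Pdgfrb, while Dcn and Lum had 14 and 1 reads overall. Leukocyte markers summed to no more than 5.65 CPM and endothelial markers to no more than 3.93 CPM in any library. The mesenchymal sum was nearly all Vim, at 1101, 1501 and 1950 CPM in shMed4 #4, shMed4 #1 and NTC cells. Zeb1 had the same order, while Cdh2 went the other way (1.68, 0.356 and 0.291 CPM). Pdgfrb was level between the hairpins (109.3 and 109.7 CPM, NTC 136.9 CPM), and the few reads of Dcn went the other way. Taken as sums, the mesenchymal and fibroblast markers were ordered over the groups as the proliferin genes were, and the mammary markers in the opposite order. Their part in the values below was not tested.

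Proliferins are secreted glycoproteins of the prolactin and growth hormone family. In the mouse, trophoblast giant cells of the placenta make them during pregnancy, and growing or transformed mouse cells can make them in culture, where serum and growth factors induce them. The proteins carry mannose 6-phosphate, bind the receptor Igf2r and promote the migration of endothelial cells. In cultured cells the proliferin promoter is a classic site of interplay between the transcription factor AP-1 and the glucocorticoid receptor.

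All 3 genes lie on mouse chromosome 13 in GRCm38 and have 5 exons each. Prl2c3 (ENSMUSG00000056457.6) spans 12790816 to 12800079 on the minus strand and Prl2c2 (ENSMUSG00000079092.4) spans 12996125 to 13005383 on the same strand, 196 kb further on. Prl2c5 (ENSMUSG00000055360.13) spans 13182715 to 13191923 on the plus strand, another 177 kb further. Prl, the pituitary prolactin gene, lies 13.9 Mb from Prl2c5.

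Because reads that align to several places were not counted, the likeness of these genes sets what each count can hold. The transcripts of Prl2c2 and Prl2c3 were 97.8% identical and their coding sequences 99.6%, with 3 differing bases, T14C, C200A and T319G (the Prl2c2 base, its position from 1 at the start codon, the Prl2c3 base). Prl2c5 was further away, with a coding sequence 96.1% identical to that of Prl2c2 and 96.0% identical to that of Prl2c3. The stretch of coding positions 225 to 314 in exon 3 is shown because it holds a cluster of the bases that set Prl2c5 apart, while Prl2c2 and Prl2c3 have the same letters throughout. It was read from GENCODE transcripts (Prl2c2 chr13:12998582-12998671, minus strand; Prl2c3 chr13:12793289-12793378, minus strand; Prl2c5 chr13:13189385-13189474, plus strand). Capitals mark the 5 positions at which the 3 genes are not the same.
Prl2c2: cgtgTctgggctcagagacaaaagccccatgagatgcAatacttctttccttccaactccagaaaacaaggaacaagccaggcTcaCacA
Prl2c3: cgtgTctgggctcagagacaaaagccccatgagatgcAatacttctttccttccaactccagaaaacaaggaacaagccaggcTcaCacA
Prl2c5: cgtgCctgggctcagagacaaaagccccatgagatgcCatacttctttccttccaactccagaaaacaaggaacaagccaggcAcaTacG

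Among these genes, a read over the capitals could be assigned to Prl2c5, but none from this stretch to Prl2c2 or Prl2c3 alone. Other annotated genes were not compared over this stretch. Over whole transcripts, 33.6% of the 100-base words of Prl2c2 occurred in no other annotated gene, against 37.7% for Prl2c3 and 91.3% for Prl2c5. With words of 50 bases the shares were 10.5%, 21.4% and 61.4% in the same order of genes. Some shared words of that length also occurred in Prl2c1 and in the predicted gene Gm7040. The read length is not given in the sources used here, so these shares describe the sequences and not the reads. The counts of Prl2c2 and Prl2c3 come from the distinguishing stretches only and lie below the true number of reads by an unknown amount, whereas a low count of Prl2c5 owes less to this loss.

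**Figure D1:**
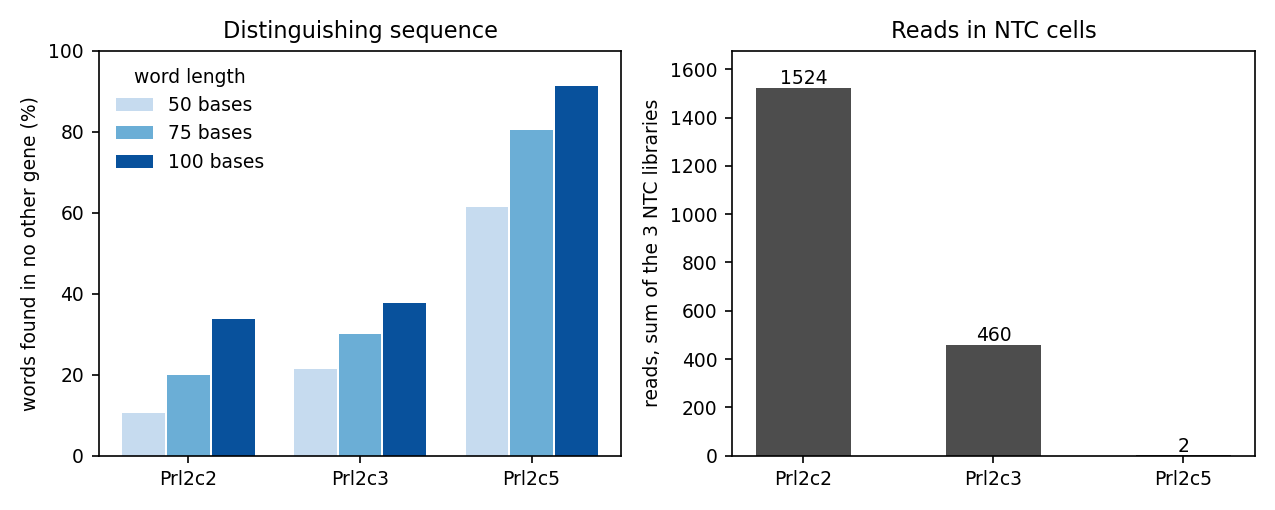
The left panel shows the share of the words of each proliferin transcript that occur in no other annotated gene, in percent, for words of 50, 75 and 100 bases. Prl2c5 lies far above Prl2c2 and Prl2c3 at each word length, from 61.4% at 50 bases to 91.3% at 100 bases, while the right panel shows its 2 reads over the 3 NTC libraries beside 1524 for Prl2c2 and 460 for Prl2c3.

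Prl2c2 had the most reads of the 3 genes in each group. Per kb of exon it stood at 58.3 ± 5.9 RPKM in NTC cells, where Prl2c3 stood at 14.1 ± 1.4 RPKM (RPKM is CPM per kb of exon; SD, n = 3). These values divide by the full exon length, although only distinguishing stretches could hold counted reads. They do not give the true ratio of the transcripts. Prl2c2 had 33, 34 and 24 reads in the shMed4 #4 libraries, 91, 57 and 92 reads in the shMed4 #1 libraries, and 539, 435 and 550 reads in the NTC libraries. The highest hairpin library held far fewer reads than the lowest NTC library, and the libraries of the 2 hairpins did not overlap either. Scaled to library size, this was 3.73 ± 0.69 CPM in shMed4 #4, 9.62 ± 2.4 CPM in shMed4 #1 and 63.6 ± 6.4 CPM in NTC cells (SD, n = 3 each). Prl2c2 thus stood at 5.87% of its NTC level with shMed4 #4 and at 15.1% with shMed4 #1. The log2 fold change against NTC was -4.09 (SE 0.14) for shMed4 #4 and -2.72 (SE 0.11) for shMed4 #1, which is 17.0-fold and 6.61-fold lower. Of the 14335 tested genes, 18.5% had a lower mean CPM than Prl2c2 in shMed4 #4 cells, 29.7% in shMed4 #1 cells and 73.0% in NTC cells.

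Prl2c3 encodes a proliferin nearly identical in coding sequence to that of Prl2c2. It had 10, 10 and 16 reads in the shMed4 #4 libraries, 23, 8 and 19 reads in the shMed4 #1 libraries, and 169, 134 and 157 reads in the NTC libraries. All 6 hairpin libraries lay below all 3 NTC libraries, while the libraries of the 2 hairpins overlapped. Mean levels were 1.47 ± 0.42 CPM in shMed4 #4, 2.01 ± 0.96 CPM in shMed4 #1 and 19.2 ± 1.9 CPM in NTC cells, so 7.68% and 10.5% of the NTC level were left with shMed4 #4 and shMed4 #1. The log2 fold change against NTC was -3.69 (SE 0.21) for shMed4 #4 and -3.25 (SE 0.20) for shMed4 #1. With shMed4 #4, 13 tested genes had a lower log2 fold change than Prl2c2 and 19 a lower one than Prl2c3. With shMed4 #1 these were 5 for Prl2c2 and 1 for Prl2c3.

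Prl2c5 was close to silent. It had no read in any shMed4 #4 or shMed4 #1 library, and 1, 1 and 0 reads in the NTC libraries. A count of 0 allows a level of up to 0.350 to 0.396 CPM, depending on the library, with counting error alone considered. The NTC mean of 0.0845 CPM lies under that limit, so no fold change can be given and no difference was detectable at this depth. Since most of its sequence is its own, Prl2c5 contributed little to the proliferin reads of these cells. NTC libraries gave 6.10 reads per distinguishing 100-base word of Prl2c2, 1.61 for Prl2c3 and 0.00294 for Prl2c5. These ratios are rough, since reads were counted over all exons of a gene and words were taken from 1 transcript. The read length is also unknown.

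Summed over the 3 genes, the libraries held 43, 44 and 40 reads for shMed4 #4, 114, 65 and 111 reads for shMed4 #1, and 709, 570 and 707 reads for NTC. The sum was 5.20 ± 0.28 CPM in shMed4 #4, 11.6 ± 3.3 CPM in shMed4 #1 and 82.9 ± 8.0 CPM in NTC cells, or 6.28% and 14.03% of the NTC level with shMed4 #4 and shMed4 #1. Its log2 fold change against NTC was -3.99 (SE 0.13) for shMed4 #4 and -2.83 (SE 0.11) for shMed4 #1. Both tested genes, Prl2c2 and Prl2c3, lay below NTC in all 6 hairpin libraries, as did 18.3% of all tested genes. Each gene also lay below NTC with each hairpin alone, as did 29.8% of tested genes with shMed4 #4 and 23.9% with shMed4 #1. Since these values chose the genes, nothing is read from the counts. In RNA of whole cultures, fewer cells that carry a transcript and less of it per cell cannot be told apart.

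**Figure D2:**
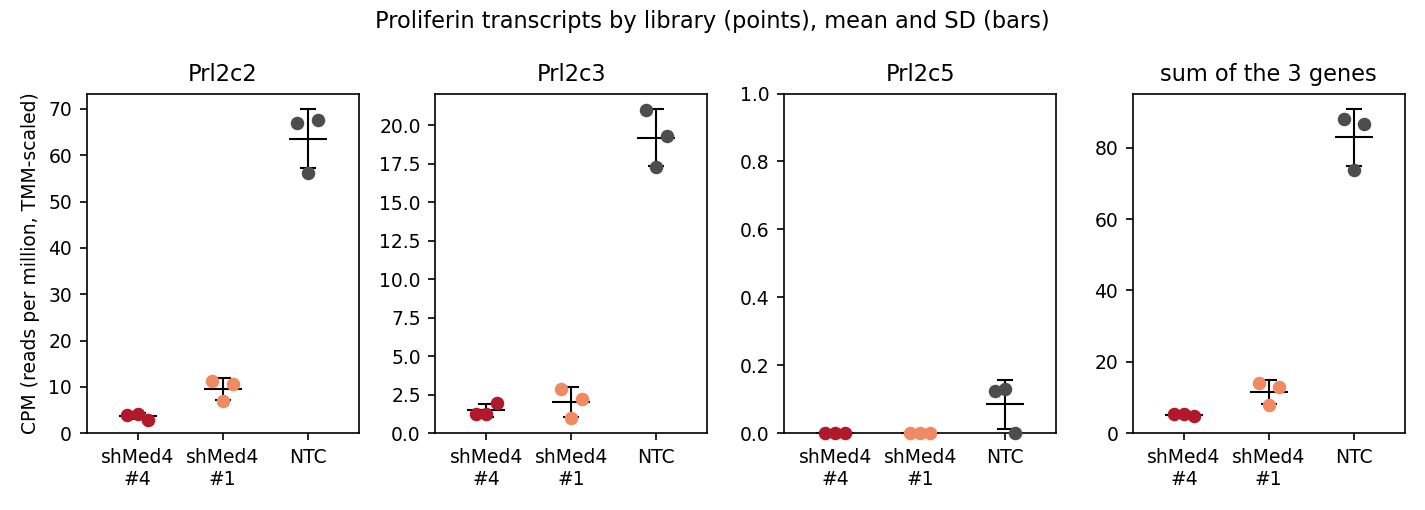
Level of Prl2c2, Prl2c3, Prl2c5 and their sum in CPM, with 1 point per library, a line at the mean and bars of 1 SD, each gene on its own axis, for shMed4 #4, shMed4 #1 and NTC. The 3 NTC libraries of Prl2c2 lie between 56.2 and 67.5 CPM, above all hairpin libraries, which lie between 2.94 and 11.3 CPM.

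The difference between the hairpins did not enter the choice of the genes as such, although the same libraries did. Prl2c2 was 2.57-fold lower in shMed4 #4 than in shMed4 #1 cells (log2 difference -1.36, 95% interval -1.75 to -0.98, edgeR adjusted p = 1.00e-06), and each shMed4 #4 library lay below each shMed4 #1 library, as for 20.2% of all tested genes. For Prl2c3 the difference was -0.44 with an interval of -1.11 to 0.23 (edgeR adjusted p = 0.367), which reaches 0 on one side and overlaps the interval of Prl2c2 on the other. The summed genes differed by -1.16 (interval -1.51 to -0.80, edgeR adjusted p = 4.20e-06). Between the hairpins, 28.0% of all tested genes passed the same threshold and 13.9% were lower with shMed4 #4. Prl2c2 and the sum were thus lower with the hairpin that left more Med4: Med4 averaged 7.21 ± 0.98 CPM in shMed4 #4 and 4.53 ± 0.39 CPM in shMed4 #1 cells (log2 difference 0.67, edgeR adjusted p = 0.00401).

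The balance of the 2 expressed genes was also set side by side. Prl2c2 made up 76.7%, 77.3% and 60.0% of the reads of Prl2c2 and Prl2c3 in shMed4 #4 libraries, 79.8%, 87.7% and 82.9% in shMed4 #1 libraries, and 76.1%, 76.4% and 77.8% in NTC libraries. The NTC libraries lay close together, and each shMed4 #4 library lay below each shMed4 #1 library. The difference of -12.1 percentage points between the hairpins had p = 0.1 in an exact two-sided permutation test, the smallest that 3 against 3 libraries allow. It rested largely on shMed4 #4 replicate 3, with 24 reads of Prl2c2 and 16 of Prl2c3: without it the mean share was 77.0% with shMed4 #4 and 83.5% with shMed4 #1, a difference of -6.46 points. These shares follow the counted reads and not the true ratio of the transcripts, given how little of each sequence is its own.

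The rest of the prolactin family was nearly absent. Of 24 other genes of the family list, which encode prolactin, growth hormone (Gh) and hormones of the placenta and the uterine lining, 16 had no read in any library and the other 8 had 24 reads in all. The highest was Prl7a1 with 9 reads over the 9 libraries. Prl2c1, a member of the same subfamily, had none, and none of the 24 reached 10 reads. Prlr, the receptor for prolactin, had no read either.

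Promoters are shown for the proliferin genes with an entry in the RefSeq table for GRCm38.p6, Prl2c3 and Prl2c5, since one was expressed in NTC cells and the other was near silent. The sequences are the 250 bases before the start (Prl2c3 chr13:12800080-12800329, minus strand; Prl2c5 chr13:13182466-13182715, plus strand), and they were 96.0% identical. Capitals mark a match in Prl2c3 to the AP-1 motif TGANTCA, searched on both strands, and the aligned bases of Prl2c5.
Prl2c3: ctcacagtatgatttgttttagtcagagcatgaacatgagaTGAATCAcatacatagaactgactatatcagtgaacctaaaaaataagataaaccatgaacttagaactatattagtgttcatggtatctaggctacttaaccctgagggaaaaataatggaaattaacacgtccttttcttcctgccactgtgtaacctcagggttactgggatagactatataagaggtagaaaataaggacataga
Prl2c5: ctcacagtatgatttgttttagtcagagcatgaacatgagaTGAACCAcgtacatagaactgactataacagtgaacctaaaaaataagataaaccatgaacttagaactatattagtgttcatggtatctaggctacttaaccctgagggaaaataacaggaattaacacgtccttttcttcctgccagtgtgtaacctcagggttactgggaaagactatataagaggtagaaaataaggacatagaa

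The AP-1 match in Prl2c3 begins 209 bases before the start, and Prl2c5 has none in this window. Of 27025 mouse promoters of the same length, 6.87% held such a match. The GATA motif AGATAA was found in both promoters, 163 bases before the start, and in 10.3% of all promoters. The letters TATAAA (12.97% of all promoters) and AGAACA, a motif of the glucocorticoid receptor (16.2%), were found in neither. Only these exact letters were searched. Both printed promoters hold the related letters TATATAA near the start, so a TATA element is not shown to be missing. Both also hold TTAGTCA near the far end of the window, letters close to the AP-1 motif. An AP-1 element is thus not shown to be missing from Prl2c5. Matches to letters describe these sequences and do not show binding.

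The genes around the cluster had medians near 0. Among the 25 nearest tested genes on each side, over 17.6 Mb, the median log2 fold change against NTC was 0.006 for shMed4 #4 and 0.073 for shMed4 #1. With shMed4 #4, 16 of the 50 passed the threshold (edgeR adjusted p under 0.05) as higher and 11 as lower, where 55.1% of all tested genes passed it, 27.8% higher and 27.3% lower. With shMed4 #1, 12 of the 50 were higher and 5 lower, where 41.6% of all tested genes passed, 21.8% higher and 19.8% lower.

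Gpr137b, which encodes a lysosomal membrane protein, was the tested protein-coding gene nearest to the cluster on the side of Prl2c5 (chromosome 13, 13357620 to 13394014, minus strand). It had 45, 59 and 55 reads in shMed4 #4, 78, 110 and 99 reads in shMed4 #1, and 226, 234 and 251 reads in NTC libraries, with no overlap between any of the groups. Of all tested genes, 29.8% lay below NTC in every library with shMed4 #4 and 23.9% with shMed4 #1. In 20.2%, each shMed4 #4 library lay below each shMed4 #1 library. Gpr137b fell to 6.52 ± 0.94 CPM in shMed4 #4 and 11.5 ± 1.8 CPM in shMed4 #1, against 29.7 ± 1.4 CPM in NTC cells. The log2 fold change was -2.19 for shMed4 #4 (edgeR adjusted p = 3.54e-17) and -1.37 for shMed4 #1 (edgeR adjusted p = 1.67e-12), and the difference between the hairpins was -0.82 (edgeR adjusted p = 6.78e-05). Of its 100-base words 77.4% occurred in no other gene, and the rest were shared with the pseudogene Gpr137b-ps, so its level is uncertain to that extent. Gpr137b-ps, on the other side of the cluster, had log2 fold changes of -0.05 (shMed4 #4, edgeR adjusted p = 0.679) and -0.20 (shMed4 #1, edgeR adjusted p = 0.0823).

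The other nearest protein-coding genes moved less. Lyst, a regulator of lysosome size, had -0.16 with shMed4 #4 and -0.20 with shMed4 #1 and passed the threshold with neither. B3galnt2, a glycosyltransferase, rose by 0.33 and 0.21 with shMed4 #4 and shMed4 #1. On the side of Prl2c3, Ero1lb, an oxidase of the endoplasmic reticulum, rose by 0.28 with shMed4 #4 and by 0.47 with shMed4 #1. Lgals8, a galectin, fell by 0.53 with shMed4 #4 (edgeR adjusted p = 2.16e-05) and had 0.05 with shMed4 #1. Heatr1, a factor of ribosome production, had 0.02 with shMed4 #4 and fell by 0.21 with shMed4 #1 (edgeR adjusted p = 0.00338). Further off, the aldo-keto reductase gene Akr1c13 rose by 3.07 with shMed4 #4 and 2.27 with shMed4 #1, from 6, 9 and 9 reads in NTC libraries. The predicted gene Gm32699 fell by 2.83 and 1.24 with the same hairpins, to 4, 4 and 7 reads in shMed4 #4 libraries. The folds of both genes thus rest on few reads. Akr1c18, next to Akr1c13, had 14, 21 and 20 reads in shMed4 #4 libraries, 0, 2 and 2 reads in shMed4 #1 libraries and 1 read in each NTC library. It rose past the threshold with shMed4 #4 (edgeR adjusted p = 1.38e-07), with no fold given against so few NTC reads, and did not pass the threshold with shMed4 #1 (edgeR adjusted p = 0.828).

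**Figure D3:**
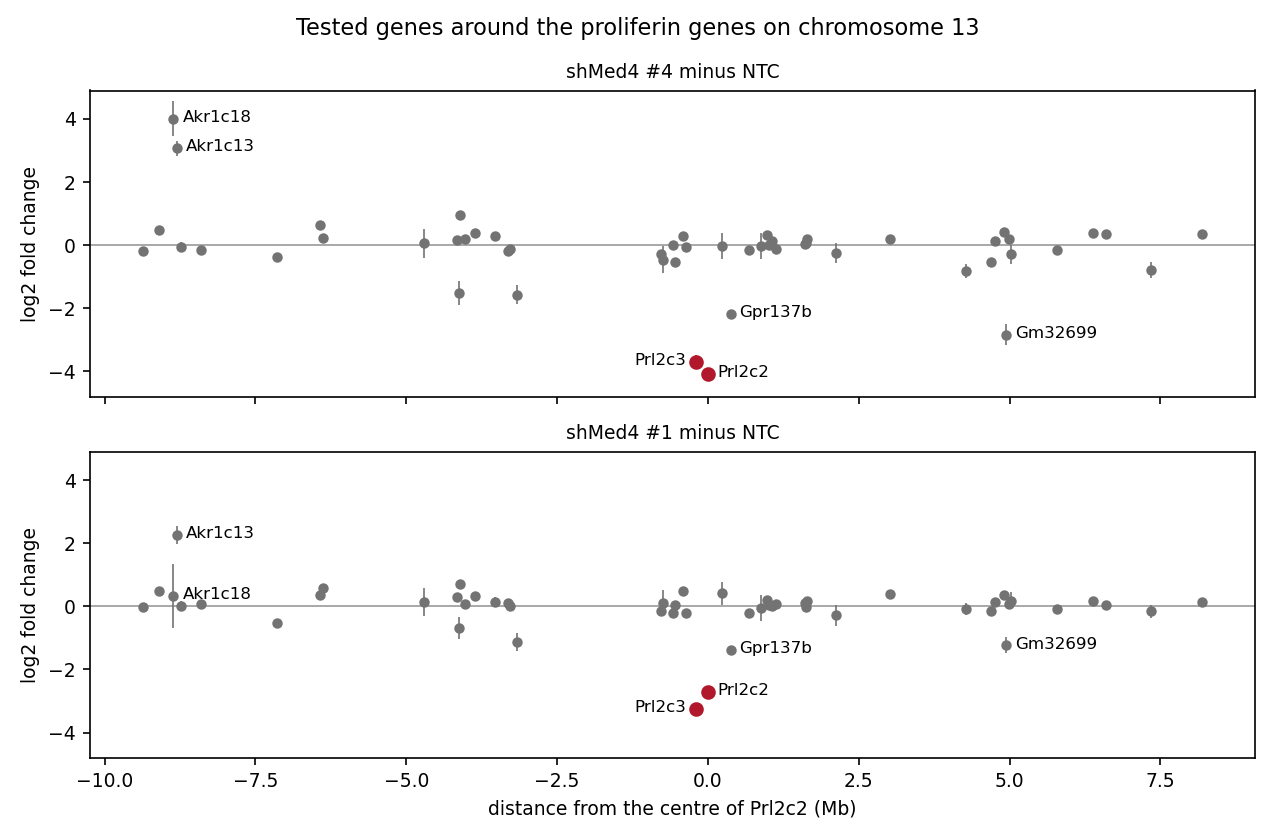
Log2 fold change against NTC of the 25 tested genes on each side of the proliferin genes and of Prl2c2 and Prl2c3, by distance from Prl2c2 in Mb, for shMed4 #4 (upper panel) and shMed4 #1 (lower panel), with bars of 1 SE. Most neighbours lie near 0 while Prl2c2 and Prl2c3 lie between -4.09 and -2.72, and Gpr137b is the low point next to them. Akr1c18, Akr1c13 and Gm32699 lie several Mb away, and the plotted value of Akr1c18 rests on 1 read in each NTC library.

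Likeness to the summed proliferin genes was measured as the root mean square distance over the 9 libraries in log2(CPM + 0.5) minus the NTC mean, over 10113 genes that averaged 5 CPM or more. The 5 nearest were Col4a1 (0.783) and Col4a2 (0.906), the chains of type IV collagen of basement membranes, the cadherins Cdh11 (0.791) and Fat4 (0.877), and the receptor tyrosine kinase Ephb2 (0.887). Col4a1 averaged 71.7 ± 4.5 CPM in shMed4 #4, 165 ± 3.0 CPM in shMed4 #1 and 585 ± 6.4 CPM in NTC cells. The 5 were picked for likeness over these same libraries, so their order over the groups follows from that choice. Each was lower in both hairpin groups than in NTC cells and lower with shMed4 #4 than with shMed4 #1. Their log2 fold changes against NTC ran from -3.38 to -2.98 for shMed4 #4 and from -1.82 to -1.48 for shMed4 #1. All were smaller in size than those of the summed proliferin genes, which had themselves been chosen for low fold changes. None of the 10113 genes came within a distance of 0.5. By Pearson's r, which compares the shape of a profile and not its size, 265 of them lay above 0.95. Col4a1, Col4a2 and Cdh11 lie on chromosome 8, away from the proliferin cluster.

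**Figure D4:**
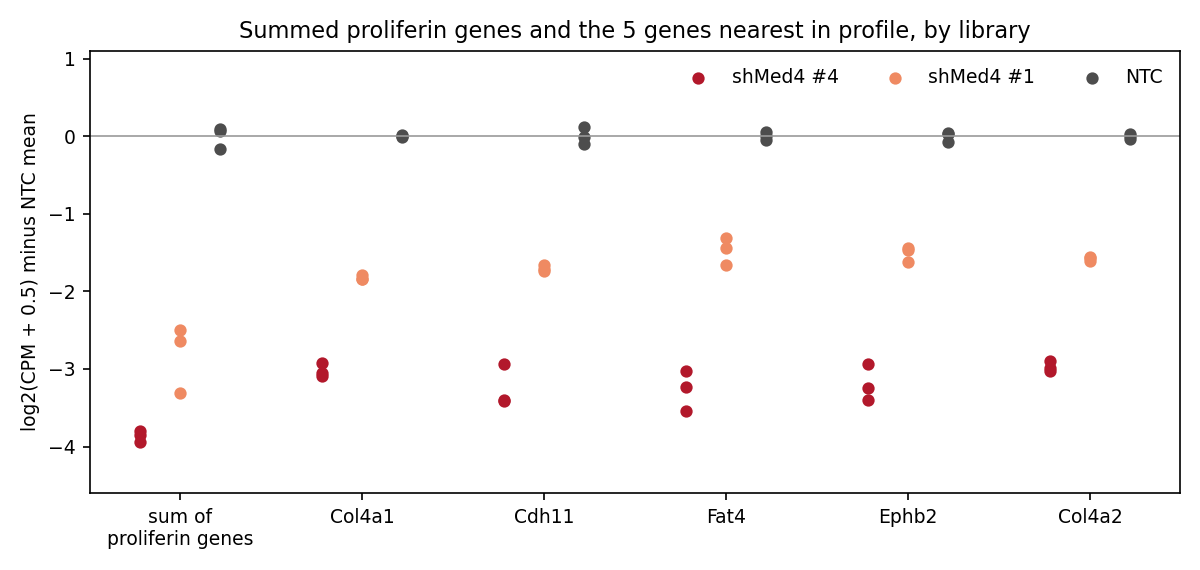
Log2(CPM + 0.5) minus the NTC mean in each of the 9 libraries for the summed proliferin genes and the 5 genes nearest to them, grouped as shMed4 #4, shMed4 #1 and NTC. The proliferin sum lies below the other genes in the hairpin libraries, and all 6 are lowest with shMed4 #4. The 5 genes were picked for this likeness and the proliferin genes for low fold changes, so neither feature is a separate result.

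Genes linked to proliferin were followed by role, with counts read against the shares of all tested genes given above and all-gene medians of -0.013 for shMed4 #4 and -0.0076 for shMed4 #1. The first role is binding and mannose 6-phosphate tagging. Of 5 tested genes, 1 was higher and 2 were lower with shMed4 #4, and 2 were higher and 2 lower with shMed4 #1. Igf2r, the proliferin receptor, had 143, 170 and 144 reads in shMed4 #4, 448, 439 and 431 reads in shMed4 #1, and 343, 348 and 330 reads in NTC libraries. The groups did not overlap. With shMed4 #4, Igf2r lay below every NTC library, as did 29.8% of tested genes, and below every shMed4 #1 library, as did 20.2%. With shMed4 #1 it lay above every NTC library, a direction for which no share was counted. Its log2 fold change against NTC was -1.19 (SE 0.09) for shMed4 #4 (edgeR adjusted p = 6.81e-14) and 0.31 (SE 0.08) for shMed4 #1 (edgeR adjusted p = 0.0013), and shMed4 #4 minus shMed4 #1 was -1.50 (edgeR adjusted p = 3.64e-16). M6pr, the smaller mannose 6-phosphate receptor, rose by 0.26 with shMed4 #4 and 0.24 with shMed4 #1. Nagpa, which uncovers the mannose 6-phosphate tag, fell by 0.28 with shMed4 #4 and by 0.62 with shMed4 #1. Gnptab, which starts that tag, had 0.03 with shMed4 #4 and fell by 0.22 with shMed4 #1.

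Of 8 tested genes of prolactin receptor signalling, 3 were higher and 3 lower with shMed4 #4, and 2 were higher and none lower with shMed4 #1. Ghr, the growth hormone receptor, averaged 40.7 ± 0.93 CPM in shMed4 #4, 36.6 ± 0.68 CPM in shMed4 #1 and 28.5 ± 3.0 CPM in NTC cells. The kinase Jak2 averaged 81.4 ± 3.4 CPM in shMed4 #4, 73.3 ± 3.7 CPM in shMed4 #1 and 61.1 ± 2.4 CPM in NTC cells. Both rose past the threshold with each hairpin. Socs2, a feedback inhibitor, rose by 0.81 with shMed4 #4 and had 0.36 with shMed4 #1 (edgeR adjusted p = 0.11). The signal transducer Stat5b fell by 0.29 with shMed4 #4 (edgeR adjusted p = 0.00665) and had -0.18 with shMed4 #1 (edgeR adjusted p = 0.102). The other genes that fell with shMed4 #4 were Stat5a, by 0.43, and the feedback inhibitor Socs3, by 0.18.

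Genes of the AP-1 family, which is linked to the proliferin promoter, moved in both directions. Of 10 tested AP-1 genes, 3 were higher and 2 lower with shMed4 #4, and 2 were higher and 2 lower with shMed4 #1. Fosl2 averaged 154 ± 4.1 CPM in shMed4 #4, 163 ± 7.6 CPM in shMed4 #1 and 261 ± 13 CPM in NTC cells, a fall by 0.76 and 0.68 on the log2 scale. The related Fosl1 rose by 0.46 with shMed4 #4 and by 0.56 with shMed4 #1, and Jun rose by 0.39 and 0.25 with the same hairpins. Fosb fell by 1.01 with shMed4 #4 and had -0.39 with shMed4 #1 (edgeR adjusted p = 0.129).

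Among 10 tested genes of the glucocorticoid response, 2 were higher and 7 lower with shMed4 #4 (median log2 fold change -0.56), and 1 was higher and 5 were lower with shMed4 #1 (median -0.22). Nr3c1, the glucocorticoid receptor, averaged 173 ± 6.5 CPM in shMed4 #4, 203 ± 8.3 CPM in shMed4 #1 and 249 ± 8.2 CPM in NTC cells. It fell by 0.52 with shMed4 #4 (edgeR adjusted p = 7.21e-11) and by 0.29 with shMed4 #1 (edgeR adjusted p = 1.47e-05). The metallothioneins Mt1 and Mt2, both on chromosome 8, fell with each hairpin, Mt1 by 0.85 with shMed4 #4 and 0.75 with shMed4 #1. The phosphatase Dusp1 fell by 0.99 and 0.61 with the same hairpins. Fkbp5, a chaperone partner of the receptor that glucocorticoids induce, rose by 0.76 with shMed4 #4 and 0.53 with shMed4 #1.

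Of 10 tested growth factor receptors and ligands, 4 were higher and 2 lower with shMed4 #4, and 2 were higher and 4 lower with shMed4 #1. Fgfr1, a fibroblast growth factor receptor, averaged 233 ± 12 CPM in shMed4 #4, 186 ± 14 CPM in shMed4 #1 and 105 ± 3.2 CPM in NTC cells. Pdgfra, a receptor for platelet-derived growth factor, averaged 60.0 ± 6.6 CPM in shMed4 #4, 77.1 ± 4.3 CPM in shMed4 #1 and 128 ± 4.4 CPM in NTC cells. Fgfr1 rose and Pdgfra fell past the threshold with both hairpins. So did Igf1r, the receptor of insulin-like growth factor, upwards (0.55 with shMed4 #4 and 0.17 with shMed4 #1), and Pdgfrb downwards (-0.33 with shMed4 #4 and -0.32 with shMed4 #1).

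The angiogenic factors, the class to which proliferin belongs by function, went both ways. Of 13 tested, 6 were higher and 4 lower with each hairpin. Flt1, a receptor for vascular endothelial growth factor, averaged 29.0 ± 2.4 CPM in shMed4 #4, 23.0 ± 1.8 CPM in shMed4 #1 and 2.09 ± 0.32 CPM in NTC cells, a rise by 3.79 and 3.45 on the log2 scale. Angptl2, a secreted angiogenic protein, rose by 0.93 with shMed4 #4 and 0.51 with shMed4 #1. Thbs1, a matrix protein that restrains vessel growth, fell by 0.53 and 0.69 with the same hairpins, and the matrix protein Ccn1 by 0.52 and 0.46.

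Trophoblast genes were mostly silent. Of 20 on the list, 10 had no read and 4 were tested, with 2 higher and 1 lower for each hairpin. Tpbpa, Ctsq, Prl3d1 and Prl3b1, which mark differentiated trophoblast, were at 0 in every library, as were Tfap2c, Cdx2 and Elf5. The 12 trophoblast markers summed to 17.1 to 18.4 CPM in shMed4 #4, 18.3 to 19.1 CPM in shMed4 #1 and 16.6 to 19.0 CPM in NTC libraries. Eomes, a transcription factor of trophoblast stem cells that other tissues also use, averaged 2.01 ± 0.069 CPM in shMed4 #4, 5.25 ± 1.3 CPM in shMed4 #1 and 7.95 ± 0.50 CPM in NTC cells. It fell by 1.98 with shMed4 #4 (edgeR adjusted p = 1.41e-09) and by 0.60 with shMed4 #1 (edgeR adjusted p = 0.00765). The transcription factors Gata2 and Gata3 rose with both hairpins, Gata2 by 0.56 with shMed4 #4 and 0.44 with shMed4 #1.

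**Figure D5:**
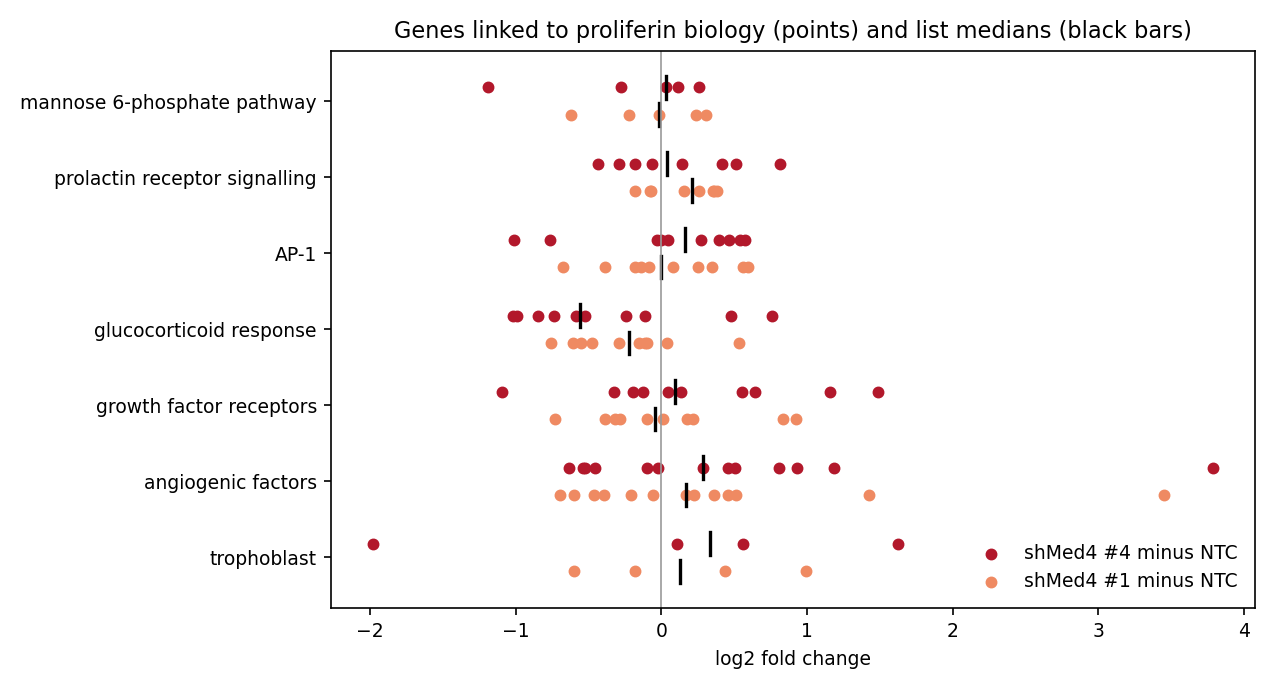
Log2 fold change against NTC of the tested genes in each list linked to proliferin, with 1 point per gene, for shMed4 #4 and shMed4 #1. The genes of each list lie on both sides of 0, with the glucocorticoid response lowest at the median for both hairpins.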

How the data were processed

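Total RNA of D2A1-d cells gave 9 libraries, run on a BGISEQ-500 machine per the labels' protocols. The submitters' processing notes name STAR, HTSeq and the build mm10 (GRCm38). Tool versions, annotation, read length and strand setting were not given in the sources used here. The authors deposited raw read counts per gene for each library. Summary lines that name no gene were left out: reads in no gene came to 49.5 to 51.6% of each file's records, alignments to several places to 10.5 to 11.6% and ambiguous reads to 0.863 to 0.951%. Intervals and limits given by depth cover counting error only.

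A symbol and a GENCODE M21 position were found for 55154 of 55335 identifiers. Replicate libraries differed by more than sampling noise, with a chi-square of 1.53 to 2.95 for each degree of freedom. Counts were fitted in R 4.3.3 with edgeR 4.0.16 (filterByExpr with a minimum count of 10, TMM factors of 0.969 to 1.03, 1 quasi-likelihood model of the 3 groups). This left 14335 genes, among them Prl2c2 and Prl2c3 but not Prl2c5. Genes were called at a Benjamini-Hochberg adjusted p below 0.05. The sum of the 3 genes was fitted in the place of its members. Standard errors are the size of a log2 fold change over the square root of its F statistic. CPM values use TMM factors, with SD over 3 libraries. The fit was tested on simulated counts. Sequence words, identities (Biopython 1.88) and motifs come from GENCODE M21 transcripts and RefSeq promoters.

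The proliferin genes and the lists of linked genes were chosen with earlier results of these data known. Named were the proliferin genes, other family genes with at least 10 reads, the 3 nearest tested protein-coding genes on each side, the 5 genes most alike, up to 4 genes of each list with the smallest adjusted p for the mean of both hairpins, Med4, Igf2r and Nr3c1. Prl7a1, Prl2c1, Prlr, Gh, Stat5a, Socs3, Gpr137b-ps, Akr1c18, Akr1c13, Gm32699 and the marker genes were named outside that rule, after their values were seen. Alternatives were limma-voom (limma 3.58.1), DESeq2 1.42.0, other scalings and filters, the replicate number as a block and leaving out each library.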

Additional observations from a re-analysis of the deposited data

Results flagged for a closer look

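Prl2c2 was flagged because its level differed between the 2 Med4 hairpins in a test of that difference, which 28.0% of all tested genes passed. The log2 difference of shMed4 #4 minus shMed4 #1 was -1.36 (SE 0.20, edgeR adjusted p = 1.00e-06), with levels of 4.02, 4.22 and 2.94 CPM in shMed4 #4 libraries and 11.3, 6.90 and 10.6 CPM in shMed4 #1 libraries. The sum of the 3 proliferin genes differed in the same direction, by -1.16 (SE 0.18, edgeR adjusted p = 4.20e-06). For Prl2c3 the difference was -0.44 (SE 0.34, edgeR adjusted p = 0.367). Whether Prl2c2 and Prl2c3 differ from each other in this respect was not tested beyond their share of reads.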

How the results depend on the processing

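Over the alternatives run, the differences between the hairpins of Prl2c2, Prl2c3 and their sum kept their direction and their side of the threshold (51 values). Their log2 fold changes against NTC, which have no test, kept their direction and moved by less than the SD between libraries (153 values), and the numbers of genes called stayed within 1.5 times (72 values). The difference between the hairpins ranged from -1.55 to -1.21 for Prl2c2, from -0.76 to -0.11 for Prl2c3 and from -1.37 to -0.99 for the sum. Leaving out 1 library at a time gave -4.18 to -3.94 for Prl2c2 with shMed4 #4 and -2.85 to -2.53 with shMed4 #1, and -3.94 to -3.56 and -3.57 to -2.92 for Prl2c3. With the replicate number as a block, Prl2c2 had -4.09 with shMed4 #4 and -2.73 with shMed4 #1, and the difference between the hairpins was -1.36 for Prl2c2 and -0.44 for Prl2c3, with 7807, 5828 and 3859 genes called in those comparisons. Same-numbered libraries did not deviate together (correlations of -0.0586 to 0.0352), which gave no sign that the numbers pair the libraries. Part of each deviation is counting noise, so a lack of pairing is not shown either. DESeq2 called 6877 genes for shMed4 #4, 4876 for shMed4 #1 and 2957 between the hairpins. Fitting the sum in the place of its members gives no separate value for each gene. Under upper-quartile scaling, no AP-1 or trophoblast gene was called higher in shMed4 #4 than in shMed4 #1, where 2 and 1 were called otherwise. By Pearson's r instead of distance, none of the 5 genes most alike was the same. Leaving out each hairpin library in turn, chosen after seeing the data, gave differences of -15.1 to -6.46 points in the share of Prl2c2. Depth limits Prl2c5, with 2 reads in all, and Prl2c3, with 8 to 23 reads in hairpin libraries.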
